A study of Mus musculus with 2 samples.

Results

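The genes described here belong to the integrated stress response, the programme with which a cell slows protein synthesis and turns on a set of repair and amino acid genes. They are the 10 genes Eif2ak3, Ppp1r15a, Atf4, Atf5, Ddit3, Trib3, Ddit4, Sesn2, Asns and Chac1, chosen by name, and every probe set that the array's annotation assigned to 1 of them alone was used. There were 18 such probe sets among 34958 probe sets with a single gene symbol, and each of the 10 genes had at least 1 probe set above the signal floor, among 11163 genes that did. The floor, a signal of 19.4, is the middle of the signal range over all probe sets other than controls and does not say whether a gene is expressed. A log2 difference of 1 stands for a 2-fold higher signal in DEF/FOS livers.

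Liver RNA of male C57Bl/6J mice, 9 weeks old before acclimatisation, was measured on Affymetrix GeneChip arrays. The DEF/FOS mice were kept for 112 days on a diet poor in n-3 polyunsaturated fatty acids (DEF), with an n-6 to n-3 ratio of 127.2, and for the last 10 days fructooligosaccharides (FOS), fibre that gut bacteria ferment, were put in their water to give 0.25 g per day. The DEF/CT mice ate the same depleted diet and were moved for the last 10 days to the soybean oil control diet, with a ratio of 6.9. Both groups therefore carry the long depletion, and they differ in both the fibre and the oil of the last 10 days, which cannot be told apart. The treatment protocol gives 8 mice for each group, the extract protocol gives 4 to 8 mice per pool, and each pool of RNA was put on 1 array, so a value given for DEF/FOS or DEF/CT livers is that of 1 pool. No spread between animals or arrays can be measured, so no difference below has a test or a replicate check. In bulk liver, fewer cells of a type and less RNA per cell cannot be told apart either.

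The response works through the translation factor eIF2. Kinases such as PERK, made from Eif2ak3, phosphorylate eIF2 when the endoplasmic reticulum is overloaded, amino acids run short or other stresses arise. Translation then falls in general, while the mRNA of the transcription factor ATF4 is translated more, and ATF4 turns on genes such as Trib3, Asns, Chac1, Sesn2, Ddit3 and Ppp1r15a. Much of the control of ATF4 and ATF5 is thus exerted on translation and on phosphorylation of eIF2, neither of which an RNA array measures.

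The mRNAs of most of the 10 genes differed little between the pools. Of the 10 genes, each taken by its brightest probe set, 0 were at least 1.5-fold higher in the DEF/FOS pool, where 6.75% of all genes above the floor were, and 1 was at least 1.5-fold lower, where 7.82% were. That gene was Trib3, and its other probe set did not share the direction. None of the 10 reached 2-fold, which 1.74% of all genes reached upward and 2.19% downward. The median log2 difference, DEF/FOS minus DEF/CT, was -0.10 over the 10 genes and 0.00 over all genes above the floor. The median absolute difference was 0.15 in the 10 genes against 0.23 in all genes, and 9 of the 10 lay within 0.4 of 0. By sign, 3 genes were above 0 and 7 below, where 49.9% of all genes above the floor were above 0.

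**Figure D1:**
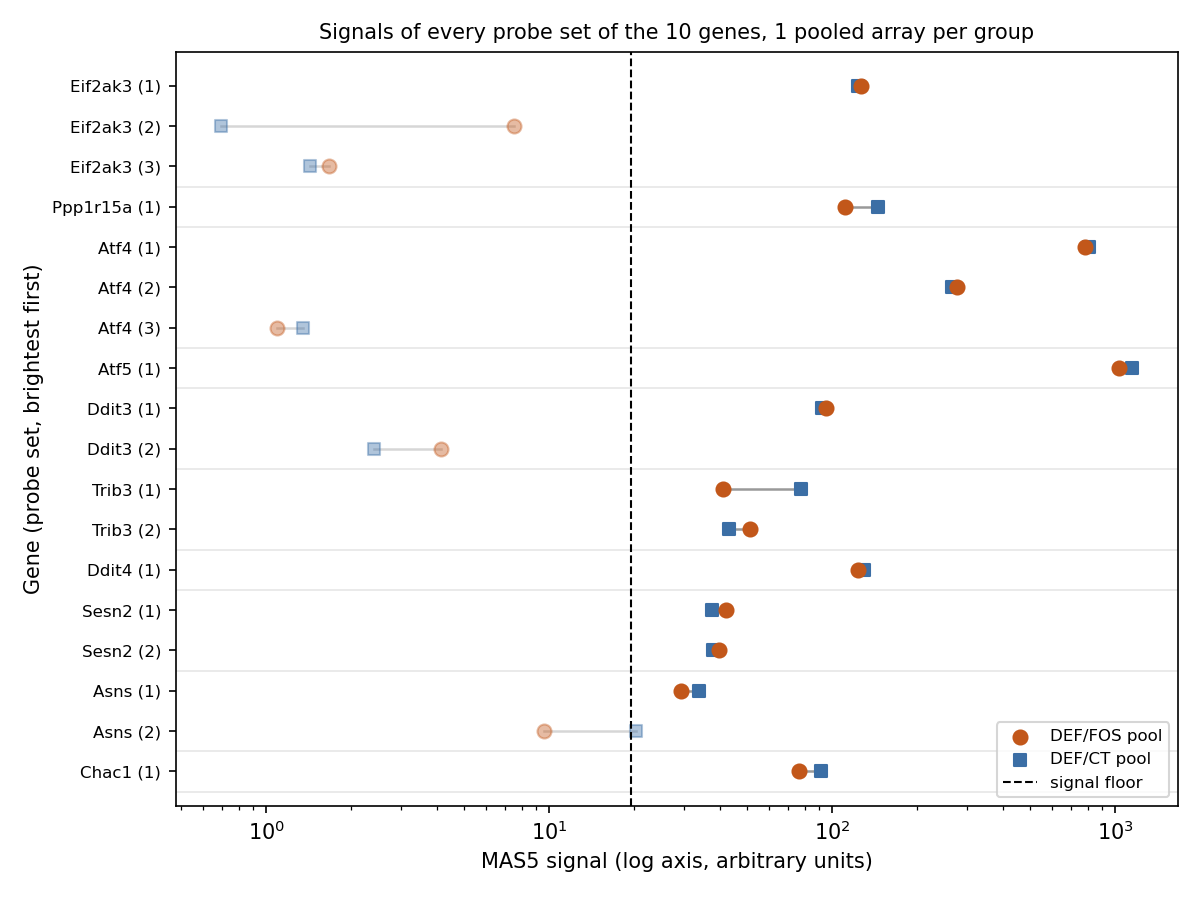
MAS5 signal on a log axis for all 18 probe sets of the 10 genes, with circles for the DEF/FOS pool and squares for the DEF/CT pool, 1 pooled array each. Grey lines join the pools, the dashed line is the signal floor of 19.4, and pale symbols are the 5 probe sets whose mean lay below it; signals of different probe sets are not comparable with each other. The first Trib3 probe set is the widest gap to the right of the floor, and the second Trib3 probe set runs the other way.

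A search of the promoters showed which members carry, near the start site, the letters that ATF4 is known to bind. ATF4 pairs with C/EBP proteins on the composite element TGATGNAAN, which was searched on both strands of RefSeq promoter windows (GRCm38.p6, 250 bases before to 50 after the start site). All 10 genes matched, with 11 windows. The element was found in 3 of these genes, Asns, Chac1 and Trib3, and in 3.95% of all 32851 windows. The cAMP response element TGACGTCA, a palindrome to which ATF and CREB proteins bind, was found in Ppp1r15a alone of the 10 and in 1.79% of all windows. No window of the 10 genes holds both motifs. A match describes the sequence only. The 250 bases before the start site are printed for these 4 genes, read on the strand of the gene, with the motif in capitals, because Asns and Chac1 hold the ATF4 element before the start site and Trib3 and Ppp1r15a stood furthest from 0 in the array values.
Chac1, chr2:119350992-119351241, plus strand: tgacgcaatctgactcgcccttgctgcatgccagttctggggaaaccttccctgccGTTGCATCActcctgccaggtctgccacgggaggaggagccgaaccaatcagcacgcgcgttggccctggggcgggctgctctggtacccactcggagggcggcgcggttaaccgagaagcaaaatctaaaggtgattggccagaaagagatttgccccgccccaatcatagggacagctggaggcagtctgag
Asns, chr6:7693210-7693459, minus strand: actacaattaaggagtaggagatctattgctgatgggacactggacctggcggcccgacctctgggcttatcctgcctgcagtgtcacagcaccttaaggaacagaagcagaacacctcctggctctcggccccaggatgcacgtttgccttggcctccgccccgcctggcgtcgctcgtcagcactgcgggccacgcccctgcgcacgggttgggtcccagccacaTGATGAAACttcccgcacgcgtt
Ppp1r15a, chr7:45526269-45526518, minus strand: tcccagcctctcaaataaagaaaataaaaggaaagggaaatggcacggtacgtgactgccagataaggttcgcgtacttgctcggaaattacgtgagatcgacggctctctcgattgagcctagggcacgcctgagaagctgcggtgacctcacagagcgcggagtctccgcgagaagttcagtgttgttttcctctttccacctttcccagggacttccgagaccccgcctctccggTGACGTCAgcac
Trib3, chr2:152344061-152344310, minus strand: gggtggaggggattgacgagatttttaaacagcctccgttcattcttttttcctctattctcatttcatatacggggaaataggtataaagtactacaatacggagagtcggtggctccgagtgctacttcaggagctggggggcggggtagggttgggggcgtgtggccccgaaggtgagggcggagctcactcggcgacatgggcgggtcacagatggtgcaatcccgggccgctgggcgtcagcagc
In Chac1 the element lies on the other strand, where it reads TGATGCAAC, 194 to 186 bases before the start site. In Asns it reads TGATGAAAC on the gene strand, 23 to 15 bases before the start site. The Trib3 match, TGATGTAAA on the other strand, lies 14 to 22 bases into the transcript, so the printed Trib3 stretch has no capitals. The motif of Ppp1r15a ends 5 bases before the start site.

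Eif2ak3 encodes PERK, the eIF2 kinase of the endoplasmic reticulum. Its brightest probe set measured 126 in DEF/FOS livers and 123 in DEF/CT livers, a log2 difference of 0.05. The pools were thus nearly equal for the sensor at the head of this branch, and 87.2% of all genes above the floor had a larger absolute difference. Its other 2 probe sets lay below the floor in both pools, at 7.50 and 0.694 and at 1.67 and 1.43 in DEF/FOS and DEF/CT livers, where signals have no order.

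Ppp1r15a encodes GADD34, the phosphatase subunit that takes the phosphate off eIF2 again and so ends the response. Its only probe set measured 111 in DEF/FOS livers and 146 in DEF/CT livers. The log2 difference was -0.38, or 1.30-fold lower in DEF/FOS livers, and was larger than the SD of 0.33 between probe sets of the same gene at this signal. A larger absolute difference was seen in 29.3% of all genes. Ppp1r15b, which encodes CReP, the constitutive counterpart of GADD34, had 418 and 483 in DEF/FOS and DEF/CT livers, a difference of -0.19.

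The transcription factors among the 10 genes, Atf4, Atf5 and Ddit3, were level on their brightest probe sets. Atf4 measured 784 in DEF/FOS livers and 810 in DEF/CT livers, a difference of -0.03. Its second probe set had 276 and 265, a difference of 0.07, so the probe sets straddled 0 by a gap of 0.10. Larger absolute differences than that of Atf4 were seen in 92.2% of all genes. The remaining Atf4 probe set lay far below the floor, at 1.09 and 1.35 in DEF/FOS and DEF/CT livers.

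Atf5, a bZIP factor related to ATF4 and induced with it, is strongly expressed in liver. Its signal was 1033 in DEF/FOS livers and 1145 in DEF/CT livers, a difference of -0.13, within the SD of 0.22 between probe sets at this signal. Ddit3 encodes CHOP, the C/EBP family member that promotes cell death under prolonged stress. Its signal was 95.4 in DEF/FOS livers and 91.8 in DEF/CT livers, a difference of 0.07, and its other probe set lay below the floor at 4.14 and 2.40. None of these 3 factors differed beyond the spread between probe sets.

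Trib3 encodes a pseudokinase that is induced by ATF4 and CHOP, feeds back on ATF4 and binds the insulin-signalling kinase AKT. Its brightest probe set measured 41.0 in DEF/FOS livers and 77.4 in DEF/CT livers, a log2 difference of -0.90, or 1.87-fold lower in DEF/FOS livers. Its second probe set had 51.1 and 43.2, a difference of 0.26 in the opposite direction. The gap between its probe sets was 1.16 on the log2 scale, where the SD between probe sets of a gene at this signal was 0.45. The first carries the suffix for probe sets that match several transcripts of a gene and the second that for probe sets that may match other genes as well, so Trib3 had no probe set free of such a mark. With the signals of both summed, the difference was -0.37.

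On the first probe set alone, Trib3 was among the lower genes of the array. A larger absolute difference was seen in 5.46% of all genes above the floor, and a more negative one in 3.07%. Among the 2357 genes with a mean signal of 37.4 to 84.3, the range it falls in, 9.46% were lower in DEF/FOS livers by 1.5-fold or more.

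**Figure D2:**
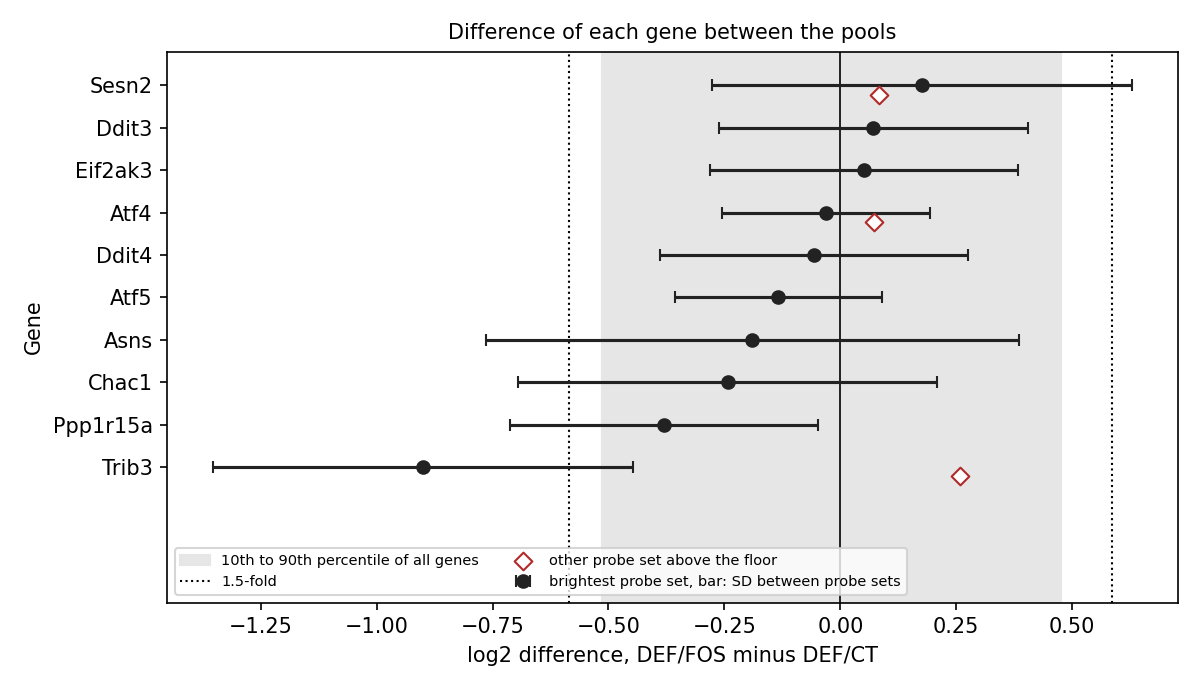
The log2 difference of each of the 10 genes, DEF/FOS minus DEF/CT, on the horizontal axis, with filled circles for the brightest probe set, bars for the SD between probe sets of a gene at that signal (not a spread between animals) and open diamonds for other probe sets above the floor. The grey band runs from -0.51 to 0.48, the 10th to 90th percentile of all genes above the floor, and dotted lines mark 1.5-fold; only the first Trib3 probe set lies outside the band, and its diamond lies at 0.26.

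Ddit4 and Sesn2 encode inhibitors of the growth kinase complex mTORC1, and each can be induced by ATF4 and by other signals, glucocorticoids in the case of Ddit4. Ddit4 measured 123 in DEF/FOS livers and 130 in DEF/CT livers, a difference of -0.06. Sesn2 had 42.0 and 37.6 in DEF/FOS and DEF/CT livers on its brighter probe set, a difference of 0.18, and 39.8 and 37.9 on the other, a difference of 0.08. The probe sets of Sesn2 thus had the same sign, and the higher of these values was the highest of the 10 genes.

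Asns and Chac1 are classical ATF4 targets in metabolism, and the promoter stretches of both hold the ATF4 element. Asns, which makes asparagine, measured 29.3 in DEF/FOS livers and 33.7 in DEF/CT livers, a difference of -0.19 at a signal near the floor, where the SD between probe sets was 0.57. Its other probe set had a mean below the floor, with 9.62 in DEF/FOS livers and 20.2 in DEF/CT livers. Chac1, which breaks down glutathione, had 76.4 in DEF/FOS livers and 91.3 in DEF/CT livers, a difference of -0.24 against an SD of 0.45. Neither gene differed beyond the spread between probe sets. In all, 8 of the 10 genes lay within that spread, and of the 13 probe sets above the floor 1 was past 1.5-fold in either direction, where 15.8% of all probe sets with 1 gene symbol were.

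Further upstream, the other eIF2 kinases differed by less than 1.5-fold on their brightest probe sets. Eif2ak4, which encodes the amino acid sensor GCN2, measured 43.0 in DEF/FOS livers and 44.0 in DEF/CT livers, and Eif2ak2, which encodes the double-stranded RNA sensor PKR, had 78.0 and 79.1. Eif2ak1, which encodes the haem-regulated kinase HRI, had 206 and 246 in DEF/FOS and DEF/CT livers, a difference of -0.24, with probe sets from -0.96 to -0.02. The probe sets of Eif2ak2 ran from -0.01 to 0.60. On brightest probe sets, 0 of 11 kinase, phosphatase and adaptor genes were past 1.5-fold in either direction, where 14.6% of all genes above the floor were. Their median was -0.02. The largest difference among the 11 genes was that of the adaptor Nck1, at 0.35, with probe sets that disagreed in sign, followed by Eif2ak1. Gcn1, which encodes an activator of GCN2, came next at 0.20, also with disagreeing probe sets.

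Subunits of eIF2 and of its exchange factor eIF2B, which phosphorylated eIF2 blocks, listed together with the separate initiation factor genes Eif2a and Eif2d, had a median of 0.23 over 9 genes, with 1 of them at least 1.5-fold up and 0 down. All genes above the floor had 6.75% up and 7.82% down by that fold. The gene that was up was Eif2b4, the delta subunit of eIF2B, at 429 in DEF/FOS livers and 228 in DEF/CT livers, or 1.90-fold higher. Its only probe set above the floor is one of those that match several transcripts or genes. Eif2b3 had a difference of 0.40. Eif2s2, the beta subunit of eIF2, and Eif2d had differences of 0.34 and 0.31, and the probe sets of each disagreed in sign. Eif2s1, the alpha subunit of eIF2, had no probe set assigned to it alone.

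Transcription factors that act beside ATF4 had a median of 0.42 over 9 genes, with 3 at least 1.5-fold up and 0 down. Among all genes above the floor, 6.75% were that far up and 7.82% that far down. Cebpb, which encodes a liver C/EBP protein and partner of ATF4, had 919 in DEF/FOS livers and 534 in DEF/CT livers, 1.74-fold higher, and its probe sets, at 0.80 and 0.87, were alike. Jdp2, a bZIP repressor, was 1.62-fold higher at 50.8 against 31.7, and Tfe3, a regulator of lysosomal genes, 1.58-fold higher at 188 against 120. Nfe2l2, which encodes the oxidative stress factor NRF2, had a difference of 0.58, with probe sets at 0.30 and 0.58. Atf3, an ATF4 target named here after its value was seen, had 118 in DEF/FOS livers and 88.7 in DEF/CT livers, a difference of 0.42. The median of this list was 0.15 without the probe sets that match several transcripts or genes. Jdp2 and Tfe3 then had no value.

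Metabolic targets of ATF4 differed among themselves in direction. In serine, glycine and one-carbon synthesis, 0 of 10 genes were 1.5-fold or more up and 3 were as much down in DEF/FOS livers, with a median of -0.29. The shares over all genes above the floor were 6.75% up and 7.82% down. Phgdh, the first enzyme of serine synthesis, had 17.7 in DEF/FOS, under the floor, and 82.7 in DEF/CT livers, at least 4.21-fold lower. The mitochondrial folate enzyme Mthfd2 was 2.48-fold lower at 20.1, close to the floor, against 50.3, with another probe set at -0.06. Its difference of -1.31 became -0.65 with 32 added to all signals before log2. Mthfd1l was at least 1.76-fold lower, with its DEF/FOS signal under the floor like that of Phgdh. Shmt1, well above the floor, had a difference of -0.47, with all 4 probe sets between -0.61 and -0.28. With no floor the median of the list was -0.07. Without the probe sets that match several transcripts or genes it was -0.03, and Phgdh and Mthfd1l then had no value.

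Amino acid transporters had a median of -0.16 over 9 genes, with 1 at least 1.5-fold up and 1 down. By the same fold, 6.75% of all genes above the floor were up and 7.82% down. The glutamine carrier Slc1a5 had 20.6 in DEF/FOS livers, close to the floor, and 48.4 in DEF/CT livers, 2.33-fold lower. Its difference of -1.22 became -0.60 with 32 added to all signals before log2. The glycine carrier Slc6a9 had 304 in DEF/FOS livers and 199 in DEF/CT livers, 1.55-fold higher, with another probe set at 0.05. With the median over probe sets Slc6a9 had a difference of 0.34, which ends its 1.5-fold call, and the median of the list was -0.01. Slc7a2, the arginine carrier of hepatocytes, had a difference of -0.50 and the glutamine carrier Slc38a3 one of -0.36.

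Cytosolic aminoacyl-tRNA synthetases, many of them ATF4 targets, had differences above 0 in 15 of 19 genes, where 49.9% of all genes were above 0. Their median was 0.17, and 1 was past 1.5-fold, where 14.6% of all genes above the floor were so in either direction. Yars, which charges the tRNA for tyrosine, had 298 in DEF/FOS livers and 182 in DEF/CT livers, 1.65-fold higher. Gars, Iars and Aars had differences of 0.45, 0.39 and 0.36.

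Other outputs of ATF4 and CHOP went both ways, with a median of 0.26 over 13 genes, 5 at least 1.5-fold up and 1 down. Of all genes above the floor, 6.75% were up and 7.82% down by as much. Fgf21, a fasting and stress hormone of the liver that is also a target of the fatty acid receptor PPARα, had 267 in DEF/FOS livers and 141 in DEF/CT livers, 1.91-fold higher. Cdkn1a, a cell cycle inhibitor that is foremost a p53 target, was 3.68-fold higher at 309 against 84.8. The collagen receptor Ddr2 was 1.87-fold higher at 38.4 against 20.8. The secreted protein Stc2 had 10.7 in DEF/FOS, under the floor, and 35.5 in DEF/CT livers, at least 1.81-fold lower.

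The remaining branches of the unfolded protein response, run by ATF6 and XBP1, had a median of -0.16 over 24 genes, with 0 up and 4 down by 1.5-fold or more. Over all genes above the floor, the shares past that fold were 6.75% up and 7.82% down. Derl3, a component of the disposal of misfolded proteins, had 38.4 in DEF/FOS livers and 121 in DEF/CT livers, 3.14-fold lower. The only Derl3 probe set above the floor is one of those that match several transcripts or genes. Pdia4, a disulfide isomerase, was 2.06-fold lower at 62.9 against 131, Atf6b 1.80-fold lower and the chaperone cofactor Sdf2l1 1.63-fold lower. The hallmark genes Hspa5 and Xbp1, named here after their values were seen, were level. Hspa5, the main chaperone of the endoplasmic reticulum, had 6044 in DEF/FOS livers and 5653 in DEF/CT livers, a difference of 0.11, and Xbp1 had 4143 and 3826, a difference of 0.13. The probe sets of each disagreed in sign, from -0.10 to 0.11 for Hspa5 and from -0.11 to 0.29 for Xbp1. With an offset of 32 added to all signals before log2, which damps dim probe sets most, Trib3, Jdp2, Tfe3, Mthfd1l, Slc6a9, Ddr2, Atf6b and Sdf2l1 no longer reached 1.5-fold.

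**Figure D3:**
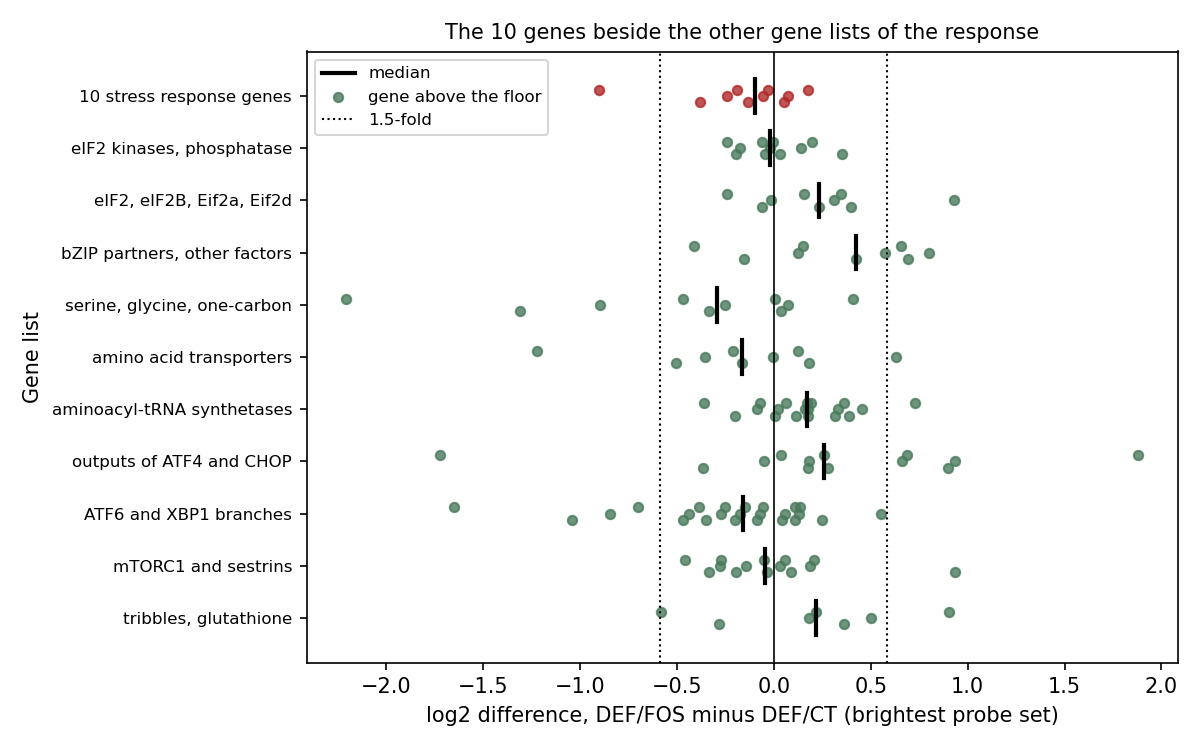
Each point is a gene above the floor, placed by its log2 difference, DEF/FOS minus DEF/CT; rows are the 10 stress response genes (top) and 10 other lists of the response, black bars are medians and dotted lines mark 1.5-fold. The 10 genes centre on -0.10, the bZIP partners on 0.42 and the serine, glycine and one-carbon genes on -0.29.

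The pools also differed in markers of other cell types. All 11 skeletal muscle markers were lower in the DEF/FOS pool, their summed signal was 142 in DEF/FOS livers and 2666 in DEF/CT livers, and 8 of them lay under the floor in DEF/FOS livers and 0 in DEF/CT livers. None of the markers was listed at 0. Tnnc2 was at least 23.7-fold and Acta1 at least 34.5-fold lower, Myh1 at least 13.1-fold and Myl1 at least 10.6-fold. Neutrophil markers had a summed signal of 495 in DEF/FOS livers and 207 in DEF/CT livers over 10 genes, with 3 of the 6 above the floor at least 1.5-fold higher. The 3 were Lcn2, S100a8 and S100a9, with differences of 2.53, 2.13 and 1.66. For Lcn2 and S100a8 the only probe set above the floor is one of those that match several transcripts or genes. The Lcn2 signal in DEF/CT livers, 20.9, was close to the floor. Csf3r, Ngp and Elane had differences of 0.46, 0.10 and -0.30, so the marker set did not rise as a whole. The part of muscle cells and neutrophils in the values of Trib3 and of the other genes above was not tested. The 8 hepatocyte markers with a probe set were bright, with no signal under 2579, and had a median difference of -0.03.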

How the data were processed

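The authors deposited 1 MAS5 signal intensity per probe set and array, on a linear scale; GCOS and MAS5 are named without a version in the submitters' processing notes. The trimmed mean without the outer 2% on each side was 100.00 in DEF/FOS and in DEF/CT, so these values had been scaled. Detection calls were not used here. Symbols came from the platform annotation, and Entrez identifiers in a RefSeq table (GRCm38.p6) matched 34754 of 34958 probe sets with 1 symbol and changed 0 of these symbols.

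Differences are log2 DEF/FOS minus log2 DEF/CT, with no offset, centred on the median over probe sets above the floor, which was -0.01. The floor is the median, over probe sets other than controls, of the mean log2 signal, equal to 19.4 on the linear scale, and was not set from detection calls. A gene took the value of its brightest probe set by mean signal. A fold against a pool under the floor uses the floor in its place and is a lower bound. The SD between probe sets of a gene was pooled within 4 ranges of signal over 517 to 1694 genes each. It compares probe sets on the same 2 arrays, so it can hold differences between transcripts of a gene. It holds no spread between arrays, pools or animals, and the number of arrays limits the precision. The functions were tested on simulated data.

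The 10 genes and the 16 other lists were chosen with earlier results of these data known. Named were all 10 genes, the other eIF2 kinases, and up to 4 genes per other list with the largest absolute difference. Python 3.11.15, numpy 2.4.6 and pandas 2.3.3 were used.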

Additional observations from a re-analysis of the deposited data

How the results depend on the processing

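With 1 array per group, no replicate could be left out. No paired analysis was possible because each group holds 1 pooled array. The median of the 10 genes stayed between -0.11 and -0.04 over 8 alternatives, and 0 genes were at least 1.5-fold higher in any of them. The count at least 1.5-fold lower was 0 instead of 1 with the floor at the 75th percentile of signal (which leaves 6 of the 10 genes), with an offset of 32, with the median over probe sets, and without probe sets that match several transcripts or genes (which leaves 8). Trib3 had a difference of -0.57 with that offset and -0.32 with the median over probe sets. With the higher floor, or without the probe sets that match several transcripts or genes, Trib3 had no value and left the count. Among the medians of the other lists under these alternatives, 17 moved by more than the SD between probe sets divided by the root of the list's size and 110 did not. Of 20 genes named in the pathway lists and past 1.5-fold, 8 were no longer so with the offset: Jdp2 at 0.39, Tfe3 at 0.54, Mthfd1l at -0.39, Slc6a9 at 0.55, Ddr2 at 0.43, Atf6b at -0.50, Sdf2l1 at -0.47 and Depdc5 at 0.51. With the median over probe sets 1 was not, Slc6a9. The higher floor gave a value for 9 of the 20. Over all named genes other than the 10, markers included, 29 values moved by more than the SD between probe sets and 456 did not. No gene or list past 1.5-fold changed sign. Counts of all genes at least 1.5-fold higher and lower were 754 and 873, and became 244 and 212 with the higher floor, 2856 and 3546 with no floor, and 284 and 288 with the offset. The share of genes past 1.5-fold in either direction was 14.6%, and was 6.75% with the higher floor, 35.2% with no floor and 5.12% with the offset. The cause was not tested. Low signal limits Asns, Sesn2 and Trib3 most.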

Other observations

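Genes around the sestrins and mTORC1 were mostly level, with a median difference of -0.04 over 14 genes, 1 at least 1.5-fold higher in DEF/FOS livers and 0 lower. Of all genes above the floor, 6.75% were as much higher and 7.82% as much lower. Depdc5, a subunit of the complex that holds mTORC1 off when amino acids are short, had 53.1 in DEF/FOS livers and 28.1 in DEF/CT livers, 1.91-fold higher, with probe sets at 0.49 and 0.93. Sesn1 and Sesn3, the relatives of Sesn2, had differences of -0.33 and -0.28, where Sesn2 had 0.18. Mlst8, a subunit of mTORC1, had one of -0.46.

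Relatives and partners of Trib3 and Chac1 had a median of 0.22 over 7 genes. Gss, the second enzyme of glutathione synthesis, had 441 in DEF/FOS livers and 238 in DEF/CT livers, 1.87-fold higher, with both probe sets above 0. Gclc, the rate-limiting enzyme of that synthesis, had a difference of 0.50 and Ggct one of 0.36. Chac2, the relative of Chac1 that degrades glutathione, had 509 and 771 in DEF/FOS and DEF/CT livers, a difference of -0.58.

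Of the remaining cell type markers, Kupffer cell genes had a median of 0.22 over 11 genes, led by Marco at 131 in DEF/FOS livers and 61.6 in DEF/CT livers. B and T cell genes had a median of -0.69 over 5 genes above the floor, led by Ighm at -1.72, whose probe sets disagreed in sign. Endothelial, stellate and bile duct genes had a median of 0.06 over 12 genes. Neutrophil genes had a median of 1.06 over 6 genes above the floor and of 0.34 over 10 with no floor. Without the probe sets that match several transcripts or genes it was 0.28 over 4, and Lcn2 and S100a8 then had no value.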
